A study of Mus musculus with 55 samples.

Results

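One day after a diffuse traumatic brain injury (TBI), the cortex of mice fed PLX5622 was compared with the cortex of mice fed the vehicle diet. The comparison rests on 14 of the 55 mice of the series, chosen by their sample labels: 8 mice labelled as injured, 1 day after TBI and on PLX5622, and 6 mice labelled as injured, 1 day after TBI and on vehicle. All were adult male C57BL/6 mice, 8 to 10 weeks old. PLX5622, an orally taken inhibitor of the CSF1 receptor kinase, was mixed into AIN-76A chow at 1200 mg/kg, and the vehicle mice ate AIN-76A chow without it. Both diets began 14 days before the injury and went on until the tissue was taken. Sets of mice without injury (naive, 6 on PLX5622 and 7 on vehicle), 7 days after TBI (9 on PLX5622 and 7 on vehicle) and 30 days after TBI (7 on PLX5622 and 5 on vehicle) were used here only to place the 1-day difference. Mouse 695, counted among the naive vehicle mice by its injury label, has a title that names 7 days. Without it, 34 genes in place of 33 were called between the diets at 1 day, and 26 in place of 27 between the diets in naive mice. The labels do not say how long naive mice had been on their diet, and mice studied later after TBI had also eaten it longer. Each mouse gave 1 nCounter library, in which the barcoded probes bound to the targets of 799 genes are counted. The RNA came from small cortex regions cut out of 200 um frozen sections, located on neighbouring 30 um sections stained for CD11b to find hypertrophied and rod-shaped microglia, and was pre-amplified. CD11b is the product of Itgam, so the level of Itgam is no independent finding between these regions. Other microglial genes may also depend on how the regions were placed, which was not tested. The labels do not say how regions were placed in brains with few microglia.

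Microglia are the resident macrophages of the brain. They need signals through the CSF1 receptor (gene Csf1r), fed by the ligands CSF1 and interleukin 34, to survive, and inhibitors of that receptor remove most of them from the adult mouse brain while they are taken. In the healthy cortex microglia carry the purinergic receptor P2RY12 and the fractalkine receptor CX3CR1, and they are the main source of complement C1q in the brain. After an injury they release cytokines and chemokines and clear debris, while astrocytes react with a strong rise of the filament protein GFAP. In tissue RNA such as this, fewer cells of a type and less RNA per cell cannot be told apart.

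Values are given as normalised counts, that is, counts divided by 1 size factor per mouse. Total counts at 1 day ran from 176038 to 1129717 in PLX5622 mice (median 424759) and from 433176 to 576377 in vehicle mice (median 528121). As a guide to the low end of the scale, 95% of the values of the 79 genes with the lowest means lay under 14.2, and a value below that level is near background. Fold changes are PLX5622 over vehicle on the log2(value + 1) scale, which understates the change of low genes. A gene is called when its adjusted p is under 0.05 in a limma fit over all 799 genes, adjusted by the Benjamini-Hochberg method, with the nCounter cartridge as covariate. The 8 and 6 libraries are from separate mice. A median of genes is given for lists without a test, beside that of all genes (-0.01).

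Nearly all called genes were lower on PLX5622, and most of these are known from microglia and other myeloid cells. Of 799 genes, 32 fell in PLX5622 mice (4.01%) and 1 rose (0.125%), which makes 33 called genes (4.13%). At an unadjusted p under 0.05 the same fit gave 75 lower and 24 higher genes. Of the 32 genes that fell, 9 had a log2 fold change under -3, 11 lay between -3 and -1.5, and 12 were above -1.5, with a median of -1.99. In 30 of the 32, all 8 PLX5622 mice lay below the median of the vehicle mice. The values of both groups did not overlap for 24 genes, all lower in PLX5622 mice (3.00% of 799), and for 0 genes higher (0.00%). The mean of the PLX5622 mice lay under the low-end level for 21 of the 32 genes, and the mean of the vehicle mice for 0 of them, so the fold changes of those 21 genes are read against values near background. When each library was centred on its own median the calls split into 12 higher and 30 lower genes, a scaling that moved the median of all genes to 0.08.

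**Figure D1:**
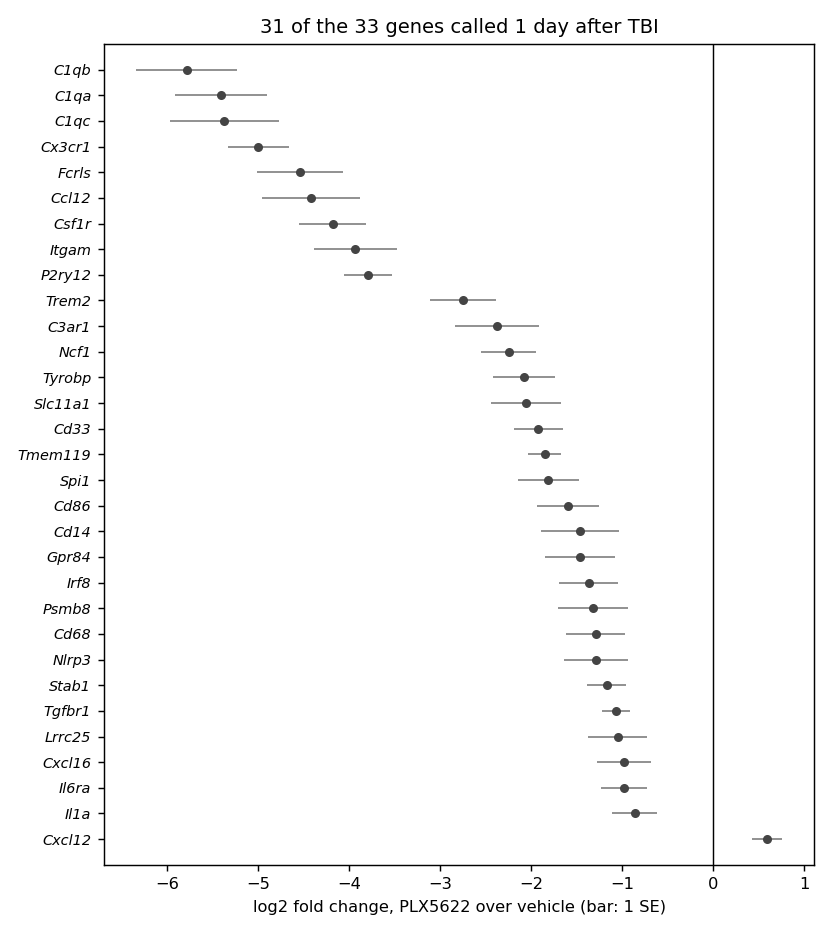
Log2 fold change, PLX5622 over vehicle, of 31 of the 33 called genes 1 day after TBI (point) with 1 SE (bar), sorted by size. The C1q genes lie furthest left, between -5.79 and -5.37, and Cxcl12 at 0.59 is the only point right of 0.

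The target of the drug and the factors that define the lineage were lower in every PLX5622 mouse. Csf1r, the receptor that PLX5622 blocks, had a lowest, median and highest value of 4.12, 9.74 and 17 in PLX5622 mice and of 126, 219 and 265 in vehicle mice. The groups lay far apart, and the mean of the PLX5622 mice was 5.24% of the vehicle mean (log2 fold change -4.18, SE 0.37, limma adjusted p = 5.8e-13). Spi1, which encodes the myeloid transcription factor PU.1, ran from 5.12 through 14.3 to 22.7 in PLX5622 mice and from 28.0 through 44.6 to 73.3 in vehicle mice. It fell by 1.81 on the log2 scale (SE 0.34, limma adjusted p = 8.6e-05). Irf8, a partner of PU.1 in microglial development, ran from 3.94 through 5.58 to 9.13 in PLX5622 mice and from 9.63 through 15.1 to 29.5 in vehicle mice, close to the low end in both (log2 fold change -1.36, SE 0.33, limma adjusted p = 0.0037). All 3 lineage genes fell, and none of their values overlapped between the diets. The ligand Csf1 was not called: its values ran from 145 through 246 to 329 in PLX5622 mice and from 105 through 192 to 267 in vehicle mice, with overlap (log2 fold change 0.29, 95% interval -0.18 to 0.76). The other ligand gene, Il34, was not measured.

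Genes that mark microglia at rest fell in 6 of 7 measured members of their list, with a median log2 fold change of -2.55. Cx3cr1, the receptor for the neuronal chemokine fractalkine, ran from 1.40 through 6.03 to 8.87 in PLX5622 mice and from 135 through 192 to 222 in vehicle mice. Every PLX5622 mouse was below the low-end level and every vehicle mouse far above it, and the PLX5622 mean was 3.09% of the vehicle mean (log2 fold change -5.00, SE 0.34, limma adjusted p = 4.0e-17). P2ry12, the ADP receptor that guides microglial processes to damaged cells, ran from 9.81 through 15.8 to 25.2 in PLX5622 mice and from 130 through 275 to 334 in vehicle mice. The groups did not overlap, and P2ry12 fell to 6.51% of the vehicle mean (log2 fold change -3.79, SE 0.26, limma adjusted p = 7.9e-17). Fcrls, an Fc receptor-like gene used as a mouse microglial marker, had medians of 6.25 and 130 in PLX5622 and vehicle mice, and its PLX5622 mean was 3.82% of that in vehicle mice.

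For other members of the list the share of the vehicle mean that was left was larger. Tmem119, a membrane protein used as a microglial marker, ran from 16.2 through 20.4 to 31.0 in PLX5622 mice and from 53.6 through 80.7 to 97.5 in vehicle mice, without overlap, and 26.9% of the vehicle mean was left (log2 fold change -1.85, SE 0.18, limma adjusted p = 8.7e-12). Tgfbr1, a receptor for TGF-beta that microglia share with other cells, kept 44.7% of the vehicle mean (log2 fold change -1.07). Aif1, which encodes the microglial protein IBA1, was near the low end in both groups (mean 13.6 ± 4.5 in 8 PLX5622 mice and 13.2 ± 3.4 in 6 vehicle mice, SD) and gave no readable difference.

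**Figure D2:**
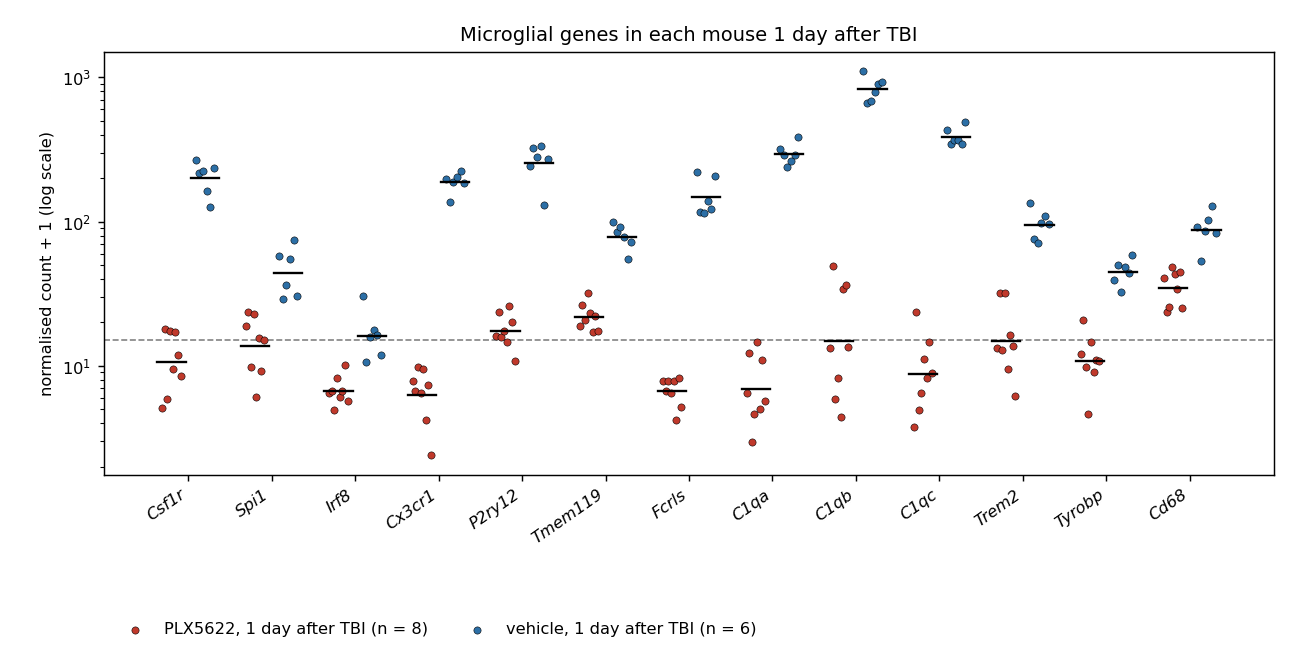
Normalised count plus 1 on a log axis for 13 microglial and myeloid genes, each point 1 mouse, with PLX5622 mice (8, red) left of vehicle mice (6, blue). Black lines are means on the log scale and the dashed line is the low-end level of 14.2 plus 1. The groups do not overlap for any of these genes, and the PLX5622 mice lie around or below the dashed line for most of them.

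The C1q genes gave the largest differences of the panel. Complement C1q is the starter protein of the classical complement pathway and is built from 3 chains, each with its own gene. C1qa ran from 1.97 through 5.09 to 13.7 in PLX5622 mice and from 240 through 286 to 382 in vehicle mice. C1qb ran from 3.41 through 12.5 to 48.2 in PLX5622 mice and from 660 through 846 to 1100.2 in vehicle mice. C1qc ran from 2.75 through 7.62 to 22.7 in PLX5622 mice and from 342 through 364 to 492 in vehicle mice. For all 3 chains the highest PLX5622 mouse was far below the lowest vehicle mouse, and the PLX5622 means were 2.33%, 2.33% and 2.38% of the vehicle means for C1qa, C1qb and C1qc. The log2 fold changes were -5.41 (SE 0.51, limma adjusted p = 3.7e-12) for C1qa, -5.79 (SE 0.55, limma adjusted p = 5.2e-12) for C1qb and -5.37 (SE 0.60, limma adjusted p = 5.9e-10) for C1qc.

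Complement receptors fell too, while other complement genes were not called. C3ar1, the receptor for the C3a fragment, ran from 2.96 through 13.5 to 22.7 in PLX5622 mice and from 29.8 through 67.1 to 208 in vehicle mice, without overlap (log2 fold change -2.38, SE 0.47, limma adjusted p = 2.0e-04). Itgam, a chain of complement receptor 3 and the gene of the stain that located the regions, had medians of 16.5 and 221 in PLX5622 and vehicle mice. Of 8 measured complement genes 5 fell and 3 (C3, C4a and C6) were not called, with a list median of -3.15. C3, the central complement component, was near the low end in both groups, at a median of 8.52 in PLX5622 mice and 5.91 in vehicle mice.

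The starts of 4 genes from this set are shown because their transcripts fell together and PU.1, whose gene also fell, binds purine-rich ETS sites in macrophages. The sequences are RefSeq's for the mouse build GRCm38.p6, from 250 bases before to 50 after the annotated start, with 4 of 4 genes matched by symbol. They were searched on both strands for the 7 letters GAGGAAG, a core of PU.1 sites, and capitals mark a match, which reads CTTCCTC where it lies on the opposite strand. C1qb lies at chr4:136886151-136886450 and C1qc at chr4:136892865-136893164, both on the minus strand. Cx3cr1 lies at chr9:120068247-120068546 on the minus strand, and Trem2 at chr17:48346151-48346450 on the plus strand.
C1qb: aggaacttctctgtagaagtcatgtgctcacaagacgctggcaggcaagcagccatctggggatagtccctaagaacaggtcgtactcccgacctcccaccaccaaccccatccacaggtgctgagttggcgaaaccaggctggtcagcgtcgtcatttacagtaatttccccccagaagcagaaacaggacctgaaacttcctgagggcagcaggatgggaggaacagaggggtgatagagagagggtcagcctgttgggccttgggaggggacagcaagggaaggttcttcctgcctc
C1qc: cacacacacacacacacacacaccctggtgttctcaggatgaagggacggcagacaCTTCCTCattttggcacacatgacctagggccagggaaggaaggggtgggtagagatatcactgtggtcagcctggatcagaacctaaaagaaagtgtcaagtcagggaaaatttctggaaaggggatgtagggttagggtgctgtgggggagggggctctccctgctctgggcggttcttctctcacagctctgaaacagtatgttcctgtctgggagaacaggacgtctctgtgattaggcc
Cx3cr1: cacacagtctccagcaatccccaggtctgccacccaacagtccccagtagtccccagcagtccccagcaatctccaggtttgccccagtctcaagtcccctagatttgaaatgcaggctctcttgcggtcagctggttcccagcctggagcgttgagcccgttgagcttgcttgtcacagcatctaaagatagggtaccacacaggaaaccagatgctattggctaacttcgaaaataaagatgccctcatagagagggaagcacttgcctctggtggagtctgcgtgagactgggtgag
Trem2: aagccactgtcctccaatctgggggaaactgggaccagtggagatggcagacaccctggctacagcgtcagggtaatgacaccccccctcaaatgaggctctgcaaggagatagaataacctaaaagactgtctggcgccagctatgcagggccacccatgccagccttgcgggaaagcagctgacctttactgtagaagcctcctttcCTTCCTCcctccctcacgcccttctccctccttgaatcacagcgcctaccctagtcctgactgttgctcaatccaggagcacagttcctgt
Counted from the start, the match begins at position -194 in C1qc and at position -41 in Trem2. The motif was in 13.6% of the 32851 mouse promoters of the same length, in 14.4% of the 793 promoters of panel genes, and in 8 of 25 promoters (32%) that belong to the 22 called genes with an entry. A match describes letters in this window and not a bound site. P2ry12 and Ccl12, which also fell, were searched in the same way, held no match and are not shown. C1qa is not shown.

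Among receptors and enzymes of phagocytes, 7 of 17 measured genes fell and 10 were not called, with a median log2 fold change of -0.52. Trem2, a lipid-sensing receptor that triggers phagocytosis, ran from 5.14 through 12.6 to 31.2 in PLX5622 mice and from 70.0 through 95.9 to 133 in vehicle mice. The groups did not overlap, and 16.7% of the vehicle mean was left (log2 fold change -2.75, SE 0.37, limma adjusted p = 6.5e-08). Tyrobp, the adaptor through which TREM2 signals, ran from 3.65 through 9.93 to 19.8 in PLX5622 mice and from 31.5 through 45.2 to 58.0 in vehicle mice (log2 fold change -2.08, SE 0.34, limma adjusted p = 8.4e-06). Cd33, an inhibitory sialic acid receptor, and Ncf1, a subunit of the phagocyte NADPH oxidase, kept 25.4% and 19.6% of their vehicle means (log2 fold changes -1.92 and -2.25). Cd68, a lysosomal protein of macrophages, ran from 22.7 through 36.6 to 47.5 in PLX5622 mice and from 52.5 through 87.8 to 127 in vehicle mice. With 38.8% of the vehicle mean left it stayed above the low end in all PLX5622 mice (log2 fold change -1.29, SE 0.32, limma adjusted p = 0.0070). Cd14, a co-receptor for bacterial lipopolysaccharide, was called with overlapping groups (log2 fold change -1.46, limma adjusted p = 0.032). Leaving out any 1 of 6 mice (693, 696 or 725 on PLX5622, and 697, 726 or 741 on vehicle) ended that call, with adjusted p up to 0.18.

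Several further myeloid genes were called, some of them named here after their values were seen. Slc11a1, a metal transporter of the phagosome, kept 25.2% of its vehicle mean without overlap (log2 fold change -2.05). Cd86, a T-cell co-stimulatory molecule, kept 32.3% without overlap (log2 fold change -1.59). The metabolite receptor gene Gpr84 (log2 fold change -1.46), the inflammasome sensor gene Nlrp3 (-1.29), the interleukin 6 receptor gene Il6ra (-0.98) and Lrrc25 (-1.05) were called with overlapping groups. Leaving out vehicle mouse 726 ended the calls of Gpr84 and Nlrp3, leaving out vehicle mouse 720 that of Gpr84, and leaving out vehicle mouse 697 that of Nlrp3, with adjusted p up to 0.081. The call of Lrrc25 was lost on leaving out any 1 of 9 of the 14 mice (688, 696, 703, 711 and 740 on PLX5622, 697, 712, 720 and 726 on vehicle), with adjusted p up to 0.15.

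Of 3 measured markers of macrophages at the brain's borders, 1 fell. Stab1, a scavenger receptor of tissue macrophages, ran from 10.8 through 21.9 to 29.2 in PLX5622 mice and from 36.8 through 50.9 to 70.3 in vehicle mice (log2 fold change -1.17, SE 0.21, limma adjusted p = 5.9e-05). The mannose receptor gene Mrc1 and the haemoglobin scavenger receptor gene Cd163 were near the low end on both diets, with medians of 3.90 and 7.07 in PLX5622 mice and 6.98 and 6.95 in vehicle mice. None of 7 markers of infiltrating leukocytes was called (list median 0.18). On each diet 4 of them had a mean under the low-end level, so a missed call does not show that the diets were alike. The summed level of the 7 markers ran from 54.2 to 142 in PLX5622 mice and from 53.2 to 131 in vehicle mice. The one with the smallest p, the integrin gene Itgal, had a median of 10.8 in PLX5622 mice and 7.86 in vehicle mice, both under the low-end level (log2 fold change 0.59, limma adjusted p = 0.41).

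Ccl12, a chemokine that attracts monocytes through CCR2, was at the low end on both diets without injury and differed between them after it. It was 0.00, 0.00, 2.75, 2.80, 3.25, 5.48, 7.30 and 8.87 in the 8 PLX5622 mice at 1 day and 22.8, 31.5, 64.4, 84.3, 146 and 204 in the 6 vehicle mice. No PLX5622 mouse came near the lowest vehicle mouse, and the mean was 4.13% of that in vehicle mice (log2 fold change -4.42, SE 0.54, limma adjusted p = 7.2e-09). In naive mice Ccl12 ran from 2.77 through 4.00 to 7.99 on PLX5622 and from 4.40 through 8.19 to 12.4 on vehicle, all under the low-end level. The level 1 day after TBI was higher than in naive mice on vehicle (log2 difference 3.15, SE 0.57, limma adjusted p = 4.8e-04) and was not called on PLX5622 (-0.55, SE 0.53, adjusted p = 0.64). Both of these contrasts use the 1-day mice of the diet comparison. The difference of the diet effect at 1 day from that without injury was -3.70 for Ccl12 (SE 0.78, limma adjusted p = 0.014), the only gene called among 799 in that test (0.125%). Leaving out PLX5622 mouse 711 or vehicle mouse 726 took the adjusted p to 0.066 and 0.073, and the log2 fold change at 1 day itself stayed between -4.71 and -4.12 whichever mouse was left out.

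**Figure D3:**
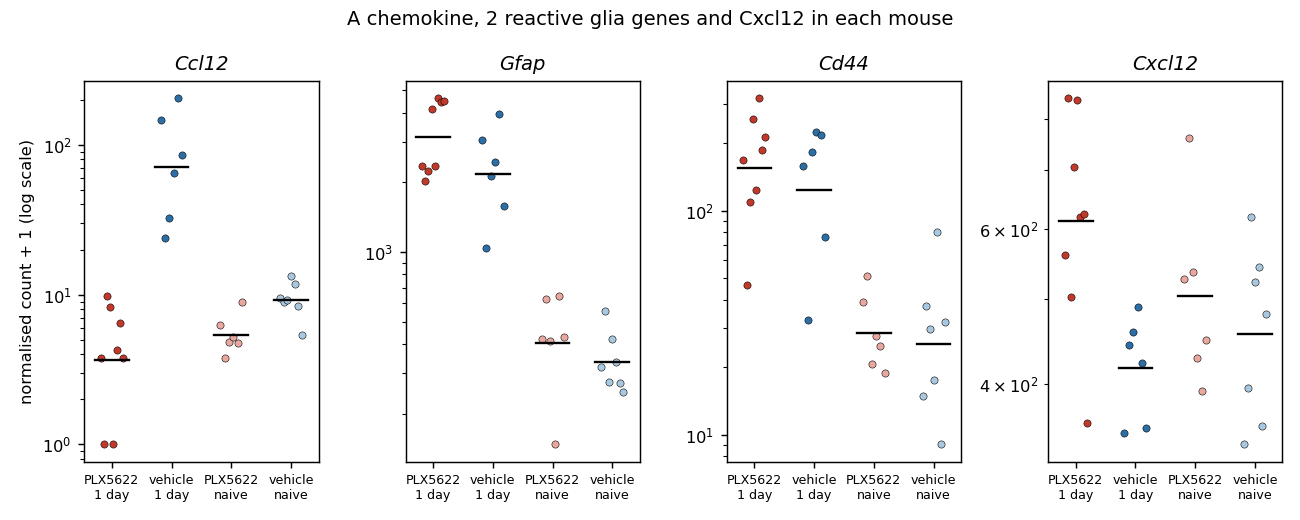
Normalised count plus 1 on log axes for Ccl12, Gfap, Cd44 and Cxcl12, each point 1 mouse and each black line a mean on the log scale; in each panel the 8 PLX5622 and 6 vehicle mice at 1 day stand left of the 6 PLX5622 and 7 vehicle naive mice. Ccl12 runs from 22.8 to 204 in vehicle mice at 1 day and reaches at most 12.4 in the other mice shown, while the means of Gfap and Cd44 are higher at 1 day than in naive mice on both diets.

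Other cytokines and chemokines differed less or were not called. Of 35 measured genes of cytokine and NF-kB signalling, 1 rose, 5 fell (Ccl12, Nlrp3, Il6ra, Cxcl16 and Il1a) and 29 were not called by limma, with a median of -0.04. Cxcl16, a transmembrane chemokine, ran from 9.13 through 18.7 to 33.8 in PLX5622 mice and from 19.3 through 39.0 to 71.2 in vehicle mice (log2 fold change -0.98, limma adjusted p = 0.043). Il1a, interleukin 1 alpha, ran from 2.96 through 9.37 to 17 in PLX5622 mice and from 8.87 through 12.3 to 29.5 in vehicle mice (log2 fold change -0.86, limma adjusted p = 0.032). The diets overlapped for both genes, and both calls hung on single mice. The call of Cxcl16 was lost without any 1 of 8 mice (688, 696, 703, 719 and 740 on PLX5622, 697, 720 and 726 on vehicle) and that of Il1a without any 1 of 6 mice (696, 711 and 740 on PLX5622, 697, 720 and 741 on vehicle), with adjusted p up to 0.16 and 0.26.

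The classical cytokines of acute inflammation were low in these libraries. Tnf had a median of 6.39 in PLX5622 mice and 10.3 in vehicle mice (log2 fold change -0.99, SE 0.37, limma adjusted p = 0.16), and 7 of 8 PLX5622 mice lay below the vehicle median. Ccl3, a macrophage chemokine, had medians of 8.31 and 27.9 in PLX5622 and vehicle mice, with values from 7.89 to 89.8 in vehicle mice (log2 fold change -1.44, SE 0.52, limma adjusted p = 0.15). The count tests called Ccl3 (adjusted p = 0.027 by edgeR and 0.019 by DESeq2), as did limma without vehicle mouse 712 (adjusted p = 0.042), and edgeR called Tnf (adjusted p = 0.049). Il1b had medians of 15.6 and 13 in PLX5622 and vehicle mice (log2 fold change 0.32, adjusted p = 0.74). Ccl2, a monocyte chemokine encoded in the same cluster of related genes as Ccl12, had medians of 8.93 and 17.2 (log2 fold change -0.62, 95% interval -1.52 to 0.28, limma adjusted p = 0.60). For Il1b and Ccl2 the interval of the difference is wide, and a missed threshold does not show that the diets were alike.

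Of 8 measured genes of interferon response and antigen presentation, 2 fell, Cd86 and Psmb8, with a list median of -0.54. Psmb8, a subunit of the immunoproteasome, ran from 2.83 through 11.1 to 17.8 in PLX5622 mice and from 12.8 through 24.7 to 47.6 in vehicle mice (log2 fold change -1.32, limma adjusted p = 0.031). Its call was lost without any 1 of 7 mice (693, 696, 703 and 711 on PLX5622, 697, 720 and 726 on vehicle), with adjusted p up to 0.14. The interferon-induced chemokine gene Cxcl10 had medians of 11.2 and 25.9 in PLX5622 and vehicle mice and was not called (log2 fold change -1.27, SE 0.63, limma adjusted p = 0.40).

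Cxcl12 was the only gene that rose in the fit used here. It encodes a chemokine made by vessel cells, astrocytes and neurons and read by CXCR4. Its values were 360, 502, 559, 619, 623, 705, 841 and 845 in the 8 PLX5622 mice and 350, 356, 421, 442, 457 and 489 in the 6 vehicle mice. The groups overlapped through 1 PLX5622 mouse, and 7 of 8 PLX5622 mice lay above the vehicle median (log2 fold change 0.59, SE 0.17, limma adjusted p = 0.025). The 2 PLX5622 mice with the highest Cxcl12 (693 and 711) had the 2 lowest total counts of their group, 176038 and 346143, and the mouse with the lowest Cxcl12 (740) had the highest total, 1129717; the part of depth in this difference was not tested. The call was lost without mouse 693 or 711 on PLX5622, or 697 or 704 on vehicle (adjusted p up to 0.12). It was also lost without a covariate and with the RNA extraction batch in place of the cartridge. The same held with only the 14 mice and without the 3 PLX5622 mice of cartridge 1 (adjusted p up to 0.15 over the alternatives). Without injury the log2 fold change of Cxcl12 between the diets was 0.08, and at 7 and 30 days it was 0.38 and 0.17, none of them called.

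Gfap and Cd44, genes of reactive astrocytes, were higher after injury on both diets, and their difference between the diets at 1 day was not called. Gfap ran from 2032 through 3260 to 4619 in PLX5622 mice and from 1037 through 2293 to 3948 in vehicle mice, with much overlap (log2 fold change 0.57, 95% interval -0.58 to 1.71, limma adjusted p = 0.74). Cd44, a hyaluronan receptor of reactive astrocytes and other cells, ran from 45.3 through 176 to 316 in PLX5622 mice and from 31.5 through 169 to 223 in vehicle mice (log2 fold change 0.44, 95% interval -0.45 to 1.33, limma adjusted p = 0.74). Against naive mice of the same diet, Gfap was higher 1 day after TBI by 3.10 (SE 0.56, limma adjusted p = 1.4e-04) on PLX5622 and by 2.83 (SE 0.60, adjusted p = 0.0038) on vehicle on the log2 scale. Cd44 was higher by 2.55 (SE 0.44) on PLX5622 and by 2.21 (SE 0.47) on vehicle. Hmox1, haem oxygenase 1, was higher by 2.28 (SE 0.39) on PLX5622 and by 1.51 (SE 0.41) on vehicle, and its values at 1 day overlapped fully between the diets (log2 fold change 0.23). The difference between diets in these injury responses was not called for Gfap (0.27, SE 0.82), Cd44 (0.34, SE 0.64) or Hmox1 (0.77, SE 0.57). Of 12 measured genes linked to reactive astrocytes 2 fell between the diets, Cd14 and Psmb8, and 10 were not called, with a median of 0.13. Both of these are also expressed by microglia.

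Injury itself was called for 54 higher and 2 lower genes on PLX5622 (6.76% and 0.250% of 799, 7.01% in all) and for 15 higher and 3 lower genes on vehicle (1.88% and 0.375%, 2.25% in all), always 1 day after TBI against naive mice of the same diet. Both counts reuse the 1-day mice of the diet comparison. The median log2 difference of all genes was 0.098 for injury on PLX5622 and -0.043 for injury on vehicle. Between the diets in naive mice that median was -0.14. The part of such shifts in the 2 counts was not tested, so the counts do not show a stronger response on PLX5622. The 10 genes higher on both diets, which share no mice between the diets, were Ccnd1, Cd44, Gfap, Hmox1, Lox, Lsr, Msn, Myc, Tnfrsf12a and Tnfrsf1a, or 18.5% of the rises on PLX5622 and 66.7% of those on vehicle. The difference between the diets in the response to injury was called for Ccl12 alone. The counts moved with the fit. On PLX5622 the 56 genes became 33 without PLX5622 mouse 719, 37 with no covariate, 61 by edgeR and 68 by DESeq2. On vehicle the 18 genes became 9 without vehicle mouse 697 or 741, 11 without PLX5622 mouse 711 or vehicle mouse 726, and 28 without vehicle mouse 704. The count on vehicle was 35 without the 3 PLX5622 mice of cartridge 1, 44 by edgeR and 51 by DESeq2. Without naive mouse 695 it was 15, of which 14 were among the 18, and the difference for Ccl12 was -3.68 (limma adjusted p = 0.022).

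**Figure D4:**
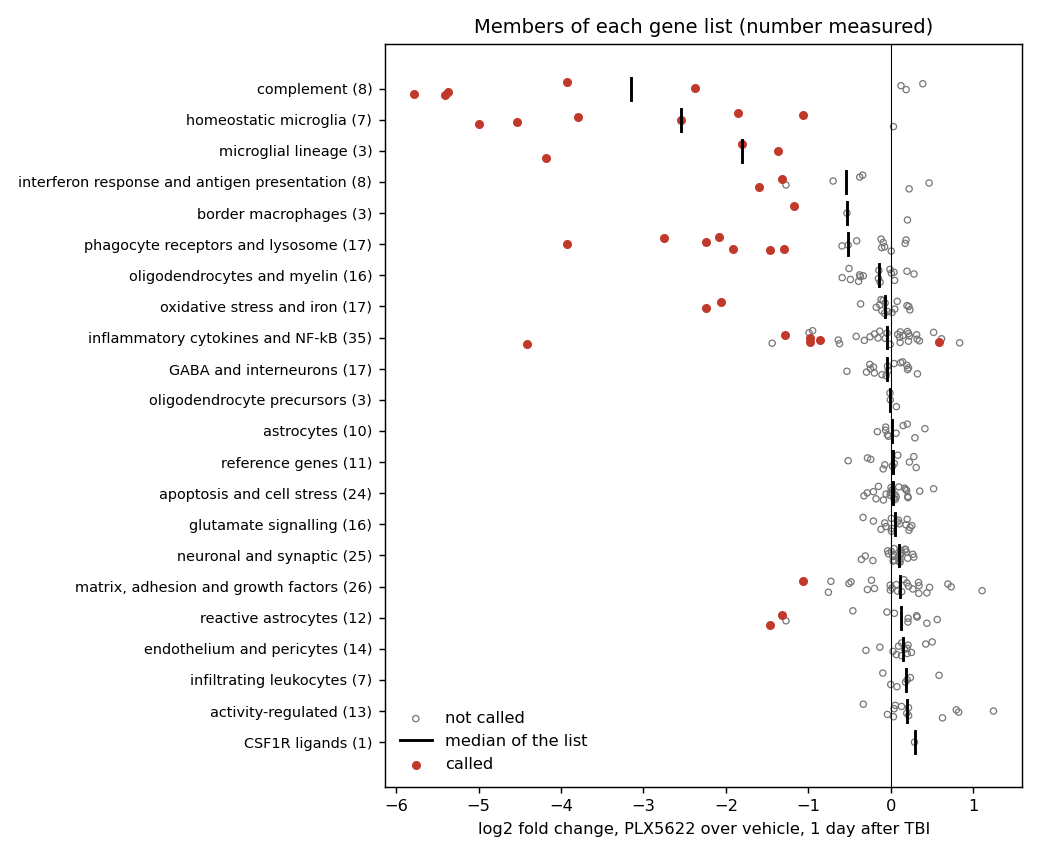
Log2 fold change, PLX5622 over vehicle, 1 day after TBI, for every measured member of the 22 gene lists (filled red: called; open grey: not called), with the median of each list as a black line and the number measured in brackets. The medians of the complement, homeostatic microglia and lineage lists lie at -3.15, -2.55 and -1.81, while the lists of neurons, astrocytes and oligodendrocyte precursors sit around 0. The list of vessels lies at 0.15 and that of oligodendrocytes and myelin at -0.15.

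In the lists of neurons, astrocytes, vessels and oligodendrocytes limma with the cartridge as covariate called 0 genes, while other fits called a few. Of 25 neuronal and synaptic genes limma called none (median 0.11), nor any of 16 genes of glutamate signalling (0.05), 17 of GABA and interneurons (-0.04) or 13 activity-regulated genes (0.20). At an unadjusted p under 0.05 there were 3, 1, 2 and 2 genes in these lists. Thy1, a surface glycoprotein of neurons, had a log2 fold change of 0.18 (limma adjusted p = 0.41) and was called higher with each sample centred on its median (adjusted p = 0.034), by edgeR (adjusted p = 0.024) and by DESeq2 (adjusted p = 0.0085). That centring also called Crebbp, the gene of a transcriptional co-activator in the activity-regulated list (log2 fold change 0.29, adjusted p = 0.028). The dendritic microtubule gene Map2 had medians of 771 and 908 in PLX5622 and vehicle mice, with all 8 PLX5622 mice below the vehicle median (log2 fold change -0.35, SE 0.12, limma adjusted p = 0.11). Gabra4, a GABA-A receptor subunit, came closest to a call, with values from 187 through 446 to 524 in PLX5622 mice and from 470 through 576 to 798 in vehicle mice. Its log2 fold change was -0.53 (SE 0.17, limma adjusted p = 0.054), and it was called without any 1 of PLX5622 mice 696, 711, 725 and 740. It was also called with no covariate (adjusted p = 0.017), with the extraction batch in place of the cartridge (adjusted p = 0.022) and by DESeq2 (adjusted p = 0.030). Egr1, an early-response gene of active neurons, had medians of 1255 and 978 in PLX5622 and vehicle mice (log2 fold change 0.83, SE 0.36, limma adjusted p = 0.31).

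Among 14 genes of endothelium and pericytes limma, edgeR and DESeq2 called none (median 0.15, 2 genes at an unadjusted limma p under 0.05), and the angiopoietin-related receptor gene Tie1 had all 8 PLX5622 mice above the vehicle median (log2 fold change 0.50, SE 0.19, limma adjusted p = 0.17). Of 10 astrocyte genes limma called none (median 0.02, 1 gene at an unadjusted p under 0.05). Mfge8, a phagocytosis bridge protein in the astrocyte list, had a log2 fold change of 0.42 (limma adjusted p = 0.14) and was called higher with each sample centred on its median (adjusted p = 0.049), by edgeR (adjusted p = 0.025) and by DESeq2 (adjusted p = 0.021). Of 3 genes of oligodendrocyte precursors and 24 genes of apoptosis and cell stress (median 0.03), the 3 tools called 0, and 0 had an unadjusted limma p under 0.05. Of 16 genes of oligodendrocytes and myelin the 3 tools called none (median -0.15, 3 genes at an unadjusted limma p under 0.05). The myelin protein gene Mal had medians of 403 and 664 in PLX5622 and vehicle mice (log2 fold change -0.59, SE 0.24, limma adjusted p = 0.24). Among 26 genes of matrix, adhesion and growth factors limma called Tgfbr1, which fell. Tgfb1, the gene of the TGF-beta1 ligand in that list, had a log2 fold change of -0.72 (limma adjusted p = 0.063) and was called lower with no covariate, with the extraction batch, with a pseudocount of 10, by DESeq2, and without any 1 of mice 703 and 719 on PLX5622 and 741 on vehicle (adjusted p from 0.013 to 0.045). Among 17 of oxidative stress and iron Ncf1 and Slc11a1 fell, both genes of phagocytes. Of 11 reference genes the 3 tools called none (median 0.02, 2 genes at an unadjusted limma p under 0.05).

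Most genes called at 1 day were also called between the diets without injury. Without injury 27 genes were called between the diets (3.38%), 24 of them also at 1 day, which is 72.7% of the 33 calls at 1 day and 88.9% of the 27. At 7 days 33 genes were called (4.13%) and 27 were shared, or 81.8% of each. At 30 days 21 were called (2.63%), 20 of them lower (2.50%), and 18 were shared, or 54.5% of the 1-day calls and 85.7% of the 30-day calls. These comparisons have no mice in common but come from 1 fit. The 18 genes called at all 4 points included the 3 C1q genes, Cd33, Cd86, Csf1r, Cx3cr1, Fcrls, Il6ra, Itgam, Ncf1, P2ry12, Stab1, Tgfbr1, Tmem119 and Trem2. At 1 day alone 5 genes were called, Cxcl12, Cxcl16, Il1a, Lrrc25 and Psmb8, and for none of them was the difference from the other points called.

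**Figure D5:**
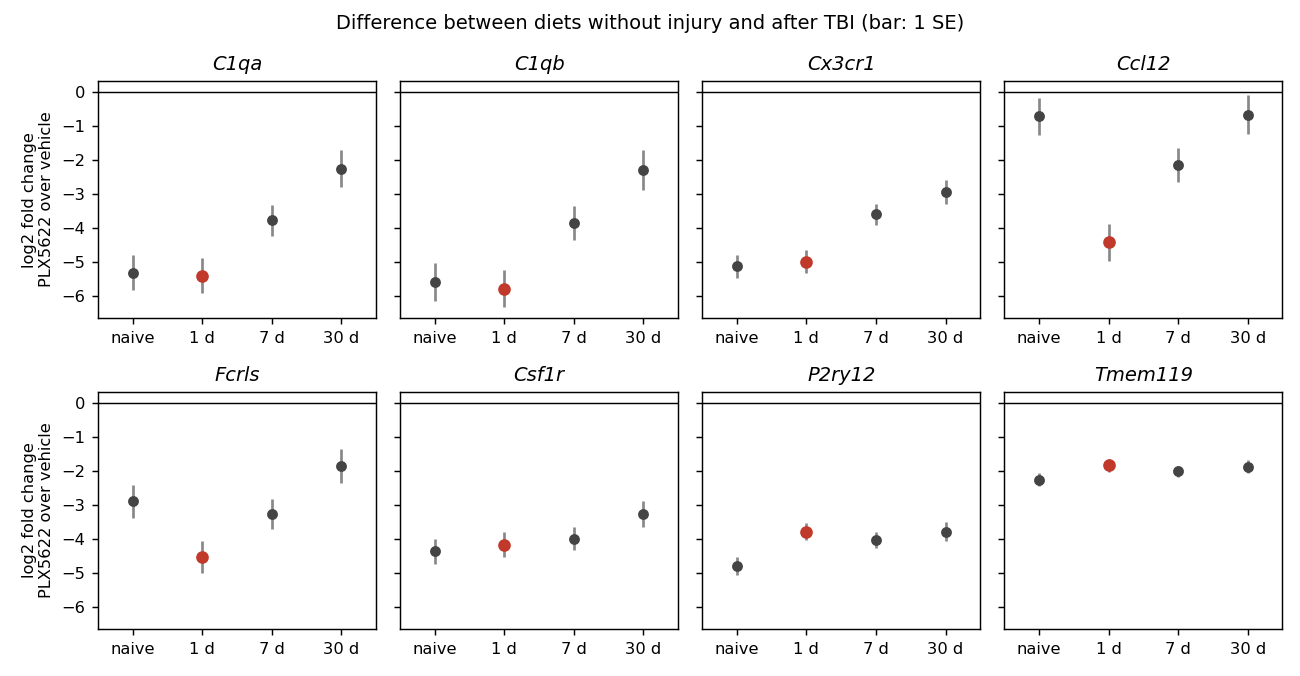
Log2 fold change, PLX5622 over vehicle, with 1 SE, in naive mice and 1, 7 and 30 days after TBI for 8 genes, the 1-day value in red. C1qa, C1qb and Cx3cr1 lie lowest in naive mice and at 1 day and are closer to 0 at 30 days, Ccl12 is lowest at 1 day, and P2ry12 stays between -4.82 and -3.79.

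The difference at 1 day was larger than at 30 days for 4 genes (0.501% of 799), all lower on PLX5622. The diet effect on C1qb was -5.79 at 1 day and -2.30 at 30 days, a difference of -3.49 (SE 0.81, limma adjusted p = 0.025). For C1qa it was -5.41 at 1 day and -2.26 at 30 days, a difference of -3.14 (SE 0.74, limma adjusted p = 0.025). For Cx3cr1 it was -5.00 and -2.95, a difference of -2.05 (SE 0.49, limma adjusted p = 0.025), and for Ccl12 -4.42 and -0.68, a difference of -3.74 (SE 0.79, limma adjusted p = 0.016). In PLX5622 mice C1qa had a median of 5.09 at 1 day and 54.8 at 30 days, with values from 5.78 to 184 among the 7 mice at 30 days. In vehicle mice the medians of C1qa were 286 and 161. Cx3cr1 likewise had medians of 6.03 at 1 day and 27.6 at 30 days on PLX5622, and of 192 and 184 on vehicle. Ccl12 at 30 days lay under the low-end level in every mouse, with medians of 4.13 on PLX5622 and 8.45 on vehicle. No diet effect on Ccl12 could be read at that point. For P2ry12 the diet effects were -3.79 at 1 day and -3.80 at 30 days, and their difference was not called (SE 0.39). The count of genes was 1 (Ccl12) with both the cartridge and the extraction batch as covariates, where C1qa, C1qb and Cx3cr1 each had an adjusted p of 0.051, 8 by edgeR and 9 by DESeq2. Without PLX5622 mouse 740 it was 1, and without PLX5622 mouse 719 it was 2. Against 7 days 0 of 799 genes were called by limma (0.00%), with 18 at an unadjusted p under 0.05 and 0 by the count tests of edgeR and DESeq2.

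The mice were spread over 5 nCounter cartridges and 3 RNA extraction batches. Cartridge 1 held 3 PLX5622 mice and no vehicle mouse at 1 day, while the other 4 cartridges and all 3 extraction batches held both diets. Within each of them all 33 called genes kept their sign, except Cd14 in cartridge 3, where 1 PLX5622 mouse stood 0.14 above 1 vehicle mouse on the log2 scale. Cartridges 4 and 5 also held 1 mouse of each diet at 1 day. Some differences were small, such as 0.018 for Cxcl12 in cartridge 5. The genes were called from these same mice, so the kept signs are no independent check of the batches. Without the 3 PLX5622 mice of cartridge 1, 25 of the 33 genes stayed called. The calls of Cd14, Cxcl12, Cxcl16, Il1a, Il6ra, Lrrc25, Nlrp3 and Psmb8 were lost. That fit also called 4 other genes, Actn1, Adcy9 and Gata2 higher and Hpgds lower. In a fit on the 14 mice alone 22 of the 33 genes stayed called, with the calls of Cd14, Cd86, Cxcl12, Cxcl16, Gpr84, Il1a, Il6ra, Irf8, Lrrc25, Nlrp3 and Psmb8 lost.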

How the data were processed

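Cortex RNA from 55 mice was counted for 799 genes on the nCounter. The deposited table holds a linear signal of 0 or more, the authors' counts after division by a size factor for each library. Per the submitters' processing notes DESeq2 was used, without a version; nothing in the labels describes a background step. Dividing each deposited column by its value of 1 count returned whole counts for every value, at a tolerance of 0.02. The count tests below used those counts. Symbols matched RefSeq by current symbol for 792 genes and by synonym for 7. No pair of mice in a group agreed within sampling noise (a chi-square over its degrees of freedom of at least 5.90).

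The main test was limma 3.58.1 in R 4.3.3 (lmFit, eBayes with a trend, two-sided) on log2(value + 1), where the log2 values were computed here from the signal the authors deposited. It had 8 group means and the cartridge as covariate over all 55 mice, with Benjamini-Hochberg adjustment over 799 genes and a threshold of 0.05. The pipeline was tested on simulated data. Alternatives were no covariate, the extraction batch, both batches, only the 14 mice, without the 3 mice of cartridge 1, centring on the sample median, a pseudocount of 10, leaving out genes with mean under 20, eBayes without a trend or robust, edgeR 4.0.16 and DESeq2 1.42.0 on the recovered counts, and leaving out each of the 14 mice. Leaving out naive mouse 695, and the alternatives for the comparisons with 7 and 30 days and for injury within a diet, were chosen after seeing the data.

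The members and the 22 gene lists were chosen with earlier results of these data known. The text names 24 fixed genes, the 10 largest rises and falls among called genes, up to 4 called members of each list with the smallest p (or 2 not called), and up to 6 genes of each interaction; the other called genes given, and Ccl3, Cxcl10, Thy1, Crebbp, Mfge8, Tgfb1, Mrc1, Cd163, C3, C4a, C6 and the genes higher after injury on both diets, were named after their values were seen. A few results are not reported here.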

Additional observations from a re-analysis of the deposited data

Results flagged for a closer look

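Of 126 pairs of a named gene and a diet group at 1 day, 7 held a mouse set apart from the rest of its group by Dixon's gap criterion, and chance flags about 1 in 20 such pairs. In each, the gap to the nearest mouse is given as a share of the range of the group, both taken on the log2(value + 1) scale. The values beside the shares are normalised counts. Among PLX5622 mice, mouse 693 was lowest for Map2 (385 against 729 in the next mouse, share 0.767) and for Ptprz1 (385 against 647, share 0.593). Mouse 719 was highest for Pecam1 (852 against 389, share 0.621) and for Tie1 (175 against 90.7, share 0.599). Among vehicle mice, mouse 726 was lowest for P2ry12 (130 against 241, share 0.651) and for Tgfbr1 (76.6 against 105, share 0.643), and mouse 741 was lowest for the reference gene Asb7 (42.7 against 66.7, share 0.803). The calls of P2ry12 and Tgfbr1 held whichever mouse was left out.

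The diet effect at 1 day differed from that at another point in 5 tests of the difference itself. It was larger than without injury for Ccl12 (log2 difference -3.701). It was larger than at 30 days for Ccl12 (-3.738), C1qb (-3.487), C1qa (-3.144) and Cx3cr1 (-2.047).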

How the results depend on the processing

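No paired analysis was possible because mouse numbers are identities of single animals and no number occurs in more than 1 group. Of the 32 genes lower and 1 higher on PLX5622 at 1 day, the count lower ran from 26 to 32 without single mice. It was 21 when genes with mean under 20 were left out, a setting that ended 11 calls. Of these genes Cxcl16 stayed in the test and lost its call. The others (Ccl12, Cd14, Cd86, Gpr84, Il1a, Irf8, Lrrc25, Nlrp3, Psmb8 and Slc11a1) were removed from the test. The count higher was 0 with no covariate, with the extraction batch or with only the 14 mice, 3 without the 3 PLX5622 mice of cartridge 1, 12 with centring on the sample median, 5 by edgeR and 5 by DESeq2, and ran from 0 to 2 without single mice. The 3 genes higher without the PLX5622 mice of cartridge 1 were Actn1, Adcy9 and Gata2, while the call of Cxcl12 was lost. All 33 genes were called by edgeR (39 genes in all) and DESeq2 (40). The interaction with naive mice gave 0 genes where genes with mean under 20, among them Ccl12, were left out, and 0 to 1 without single mice. The interaction with 30 days gave 1 gene with both batches as covariates, 8 by edgeR and 9 by DESeq2, and 1 to 4 without single mice. Injury on PLX5622 gave 37 genes with no covariate and 33 to 66 without single mice. Injury on vehicle gave 35 genes without the 3 PLX5622 mice of cartridge 1, 44 by edgeR, 51 by DESeq2 and 9 to 28 without single mice. Apart from the removed genes, the cause of these shifts was not tested. Of 1812 values for single named genes under the alternatives, 1691 kept direction and side of the threshold, 89 lost the call, 12 gained one, 20 were of uncalled genes that changed sign, and 0 called values reversed. Values under 14.2 limit the fold changes of 21 of the 32 lower genes.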
